A study of Mus musculus with 8 samples.

Results

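The ATP-binding cassette (ABC) transporter genes of subfamilies A to G were examined in the ileum, leaving out Abcc2, Abcc3 and Abcg2, which encode exporters of bile acids and other organic anion conjugates. Members were the genes whose symbol begins with Abc, a letter from a to g and a digit, and each gene was read from its brightest probe set with a single gene symbol. This gave 39 of the 17097 genes measured. The rule kept Abcb11, the bile salt export pump of the liver, and Abcc4, which also carries bile acids, so the group is defined by its symbols and not strictly by substrate. Other mouse genes with symbols of this form were not analysed here.

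RNA came from the ileum of 4 Slc51a knockout and 4 wild type mice, all males of about 2 months on a C57BL/6 background, fasted for 4 h before death. Slc51a encodes a subunit of the transporter that releases bile acids from the enterocyte across its basolateral membrane. The RNA came from ileal tissue and not from sorted cells, so in every result below fewer cells of a type and less RNA per cell cannot be told apart. Each sample was hybridised to 1 Affymetrix 3' expression array, and the authors' deposited values are normalised log2 signals, on which a difference of 1 is a doubling. Each difference is the knockout mean less the wild type mean, given with its standard error (SE) over 4 samples of each genotype. A gene passed where limma's p, adjusted over all 17097 genes by the Benjamini-Hochberg method, was under 0.05. Slc51a itself was at 4.67, 4.50, 4.68 and 4.56 in the knockout, against 11.36, 11.41, 11.29 and 11.37 in wild type, a difference of -6.75 (SE 0.05), so each sample matched its label.

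ABC proteins use ATP to move lipids, drugs, peptides or conjugates across membranes, each substrate class being served mainly by particular subfamilies. In the intestine, P-glycoprotein pumps drugs back into the lumen, and the ABCG5 and ABCG8 proteins, which work only as a heterodimer, return plant sterols and cholesterol to it. Subfamilies E and F carry the ATP-binding domains but no membrane-spanning ones, and they act on ribosomes and translation.

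In the ileum of the knockout, the sterol exporter genes Abcg5 and Abcg8 fell together. Abcc5, by 1 of its probe sets, and Abca8a were lower too. The ribosome-associated genes Abce1, Abcf1 and Abcf3 rose with the peroxisomal and lysosomal genes Abcd3 and Abcd4. Among those that rose, Abcf1 and Abcd4 each passed by only 1 of their probe sets. The calls of Abcf3 and Abcd3 were lost in at least 1 alternative fit. Of the 39 ABC genes, 7 were higher, 6 were lower and 26 did not pass. That is 33.3% of the members past the threshold, against 30% of all genes, with 17.9% against 17.1% higher and 15.4% against 12.9% lower. The share was thus near that of all genes, and the family did not stand apart by its number of changed members. Its median difference was -0.01 on the log2 scale, and that of all genes 0.01. The samples of the genotypes did not overlap for 13 members, again 33.3%, where 30.7% of all genes did not overlap. All rises of members past the threshold were under 1.5-fold, and Abca8a, Abcg5 and Abcc5 were the 3 members that fell by 1.5-fold or more. For 10 members, 7 of them in subfamily A, both genotypes had a mean under 4.58, the median signal of the probe sets, and none of these 10 passed. Of the 29 others 13 passed, or 44.8%, against 43.2% of all genes at that level.

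**Figure D1:**
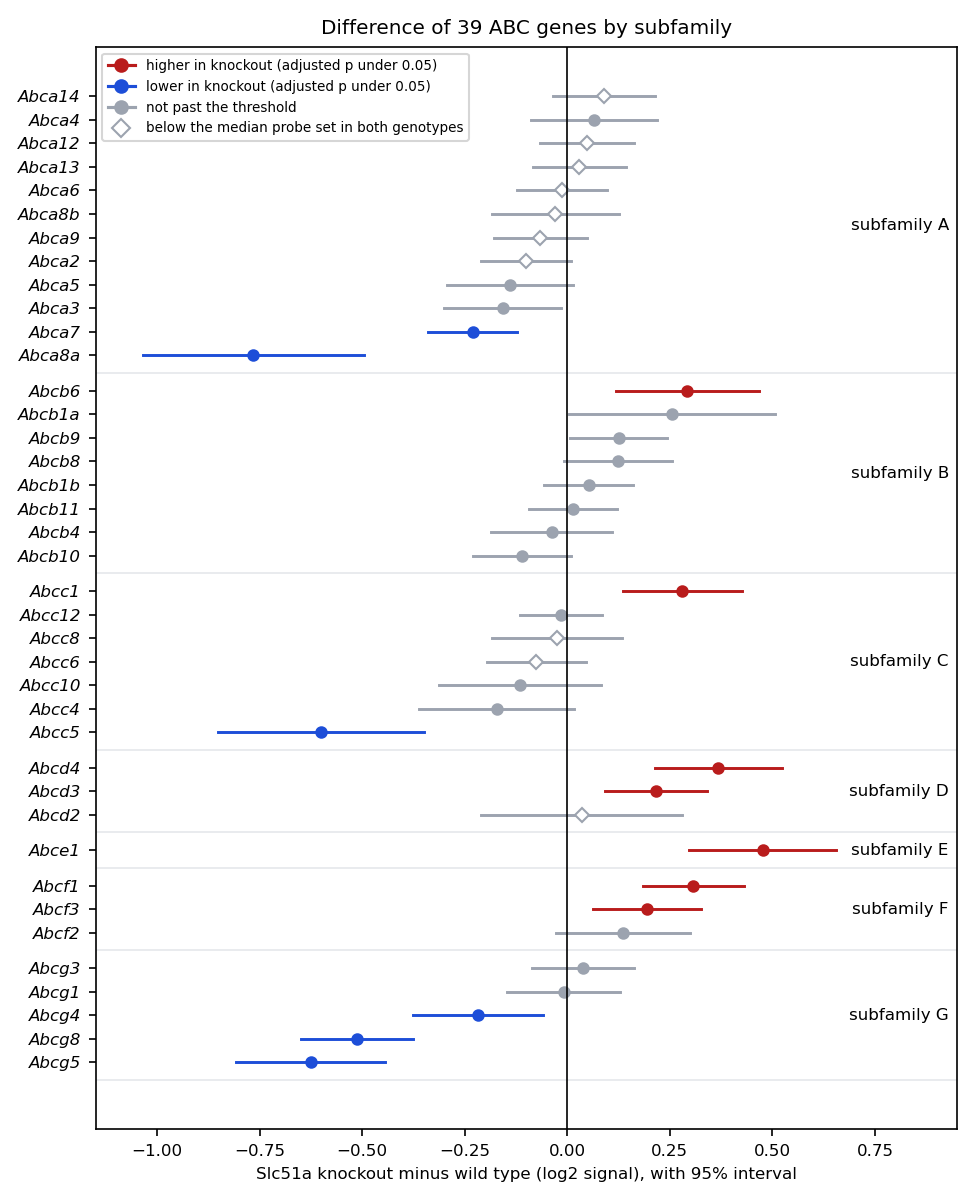
Difference between genotypes of each of the 39 ABC genes, grouped by subfamily; points are knockout minus wild type on the log2 scale and lines are 95% intervals from limma. Members of subfamilies D, E and F lie to the right of 0, and the members with the largest falls are Abca8a, Abcg5, Abcc5 and Abcg8, from -0.77 to -0.51.

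Abcg5 and Abcg8 are neighbours on chromosome 17 of mouse assembly GRCm38.p6 and are transcribed away from each other. The 109 bases between their starts, chr17:84683012-84683120, are shown because this stretch lies upstream of both genes. For comparison, the 250 bases before the starts of the other genes that fell by 1.5-fold or more follow, Abca8a (chr11:110095938-110096187, minus strand) and Abcc5 (chr16:20426395-20426644, minus strand). Each RefSeq sequence is written 5' to 3', the shared region on the strand of Abcg8 and the others on the strand of their gene, and capitals mark matches to the motifs searched.
Abcg5 and Abcg8 shared region: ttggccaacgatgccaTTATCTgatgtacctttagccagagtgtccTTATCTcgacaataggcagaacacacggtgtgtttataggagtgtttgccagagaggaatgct
Abca8a: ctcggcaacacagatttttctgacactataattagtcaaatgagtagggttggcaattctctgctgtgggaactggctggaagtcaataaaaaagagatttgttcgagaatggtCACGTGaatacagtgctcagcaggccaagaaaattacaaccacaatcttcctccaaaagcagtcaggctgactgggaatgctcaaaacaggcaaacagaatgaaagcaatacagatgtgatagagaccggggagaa
Abcc5: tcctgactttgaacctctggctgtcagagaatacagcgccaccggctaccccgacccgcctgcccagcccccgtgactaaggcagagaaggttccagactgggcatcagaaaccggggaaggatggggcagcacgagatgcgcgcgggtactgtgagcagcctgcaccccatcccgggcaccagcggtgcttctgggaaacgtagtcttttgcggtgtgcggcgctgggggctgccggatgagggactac
The capitals in the shared region are 2 matches to AGATAA, the site of GATA factors, both on the opposite strand. Of the 32851 RefSeq promoters, 3.98% held this motif in the 109 bases before the start and 0.186% held it more than once. The capitals in Abca8a are a CACGTG E-box, which 6.02% of promoters held in 250 bases. No match was found in the Abcc5 window. The other motifs searched, on both strands, were direct repeats of AGGTCA spaced by 4 bases for LXR (in 0.0152% of promoters) or 1 base for HNF4 (0.0335%), the HNF4-specific CAAAGTCCA (0.384%) and the LRH-1 site CAAGGTCA (1.33%), which can overlap a repeat. They also included the antioxidant response element core TGACNNNGC (10.2%), the ETS site CCGGAAGT (2.88%), the CCAAT box CCAAT (33.8%) and the GC box GGGCGG (32.7%). Promoters were listed for 30 of the 39 members, and a match describes letters, not binding.

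Subfamily G holds the sterol exporters. Abcg5 was at 9.16, 9.40, 9.34 and 9.12 in the knockout samples, against 9.74, 10.02, 9.96 and 9.80 in the wild type samples. Every knockout sample lay below every wild type sample. The difference was -0.63 (SE 0.08, limma adjusted p = 0.000208), which is 1.54-fold lower in the knockout. Its partner Abcg8 was at 6.40, 6.28, 6.34 and 6.45 in the knockout and at 6.85, 6.92, 7.0 and 6.76 in wild type. The groups were again separate, with a difference of -0.51 (SE 0.06, adjusted p = 0.000116), or 1.43-fold lower. Within each array, Abcg5 minus Abcg8 was 2.66 to 3.12 in the knockout and 2.89 to 3.11 in wild type, so that unequal change of the partners was not detected (difference -0.11, exact 2-sided permutation test p = 0.371). With 2 pairs of genes tested, the adjusted p was 0.371, the smallest p this design allows being 0.0286. Abcg1, which moves cholesterol to lipoproteins, was at 5.83, 5.94, 5.75 and 5.84 in the knockout, against 5.74, 5.98, 5.86 and 5.82 in wild type. These values interleave, and the 95% interval of its difference ran from -0.15 to 0.13. Abcg4, a sterol transporter known from brain, was at 6.67 ± 0.16 in the knockout and 6.89 ± 0.03 in wild type (SD, n = 4), a fall of 0.22 (adjusted p = 0.0419). That call was lost in 10 of 19 alternative fits, for example without knockout replicate 3 (adjusted p = 0.0668). The difference was -0.14 without knockout replicate 4. A second Abcg4 probe set, below the median probe set, differed by 0.01 and did not pass. Abcg3, a gene of rodents, lay at 4.82 ± 0.08 in the knockout and 4.79 ± 0.07 in wild type and did not pass.

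Genes of sterol sensing and uptake, with the apolipoprotein genes Apoa1 and Apoa4, were considered beside the exporters. Of 11 measured, 1 was higher, 4 were lower and 6 did not pass. Thus 45.5% passed, near the 43.2% of all genes above the median probe set in at least 1 genotype. Lower were 36.4%, against 18% of all genes at that level, a contrast that was not tested. Npc1l1, the cholesterol uptake protein of the brush border, changed by -0.71 (SE 0.10), Apoa1 by -0.73 (SE 0.08) and Mylip, an LXR target that degrades the LDL receptor, by -0.68 (SE 0.09). Lpcat3, an LXR-regulated phospholipid acyltransferase, rose by 0.21 (SE 0.05), the opposite direction to Mylip. Nr1h3, which encodes LXR alpha, was at 6.07 ± 0.04 in the knockout and 5.97 ± 0.07 in wild type (adjusted p = 0.174). Of 13 mature enterocyte markers, 0 were higher, 11 were lower and 2 did not pass. Against 18% of all genes at that level, 84.6% of these markers were lower. Their summed linear signal was 31869 to 34626 in the knockout and 42260 to 45845 in wild type, their median difference was -0.49, and every measured marker lay above the median probe set in at least 1 genotype. The part of enterocyte content in the fall of Abcg5 and Abcg8 was not tested.

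Subfamily A carries mainly lipid transporters, and it held the largest change of the family. Abca8a, a mouse relative of the human lipid transporter ABCA8, was at 5.49, 5.70, 5.68 and 5.10 in the knockout, against 6.12, 6.20, 6.41 and 6.30 in wild type. The groups did not overlap, and knockout replicate 4 was the lowest. The difference was -0.77 (SE 0.12, adjusted p = 0.000703), a level 1.70-fold lower in the knockout. On leaving out 1 array it ran from -0.84 to -0.63. Abca7, a phospholipid transporter also known from phagocytes, was at 6.38 ± 0.06 in the knockout and 6.62 ± 0.06 in wild type, with a difference of -0.23 (SE 0.05, adjusted p = 0.00426). Its call was lost when the 3 arrays dimmest in the hybridization controls were left out (adjusted p = 0.0543). The other 10 members of the subfamily did not pass. Abca3, the surfactant lipid transporter of the lung, was at 7.49 ± 0.13 in the knockout and 7.65 ± 0.04 in wild type, with an interval from -0.30 to -0.02 and an adjusted p of 0.0937. A second probe set of Abca3, at 5.33 ± 0.08 in the knockout and 5.55 ± 0.10 in wild type, was lower by limma (-0.23, adjusted p = 0.0216 over all probe sets). Abca8a lies in a row of Abca genes on chromosome 11 with no other protein-coding gene between them. Its neighbours Abca8b and Abca9 differed by -0.03 and -0.07, Abca6 by -0.01 and Abca5 by -0.14, and none of these 4 passed. Of them Abca5 alone lay above the median probe set.

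Markers of other cell types in the gut wall were counted in the same samples. Past the threshold were 100% of smooth muscle, 90.9% of T lymphocyte, 61.5% of myeloid, 36.4% of endothelial and 30% of fibroblast markers. Of all genes 30% passed, and of those above the median probe set in at least 1 genotype 43.2%. The fibroblast and endothelial shares were near those of all genes, and no list was tested against them. Of 11 smooth muscle markers, 0 were higher and 11 were lower, with a summed signal of 6865 to 7903 in the knockout and 10650 to 13745 in wild type. Of 10 fibroblast markers, 1 was higher, 2 were lower and 7 did not pass, and 2 of the markers lay below the median probe set. Their sums were 2416 to 3079 in the knockout and 2597 to 3520 in wild type. The lower ones were Dpt (-0.38) and Thy1 (-0.39), and Thy1 is also counted among the T lymphocyte markers below. Of 11 endothelial markers, 0 were higher, 4 were lower and 7 did not pass, with sums of 383 to 406 in the knockout and 421 to 472 in wild type, and 6 of these markers lay below the median probe set in both genotypes. Myeloid markers gave 2 higher, 6 lower and 5 not passing of 13. Their sums were 10635 to 11720 in the knockout and 13186 to 13785 in wild type. Lyz2, at 13.15 ± 0.07 in the knockout and 13.31 ± 0.02 in wild type, was the brightest of them and weighs most in those sums. Itgam and Cd68 lay below the median probe set in both genotypes, and neither they nor Csf1r and Adgre1 passed. T lymphocyte markers gave 0 higher, 10 lower and 1 not passing of 11, with sums of 517 to 700 in the knockout and 2104 to 2612 in wild type. In wild type that sum is carried mostly by the granzyme genes Gzma (-2.90, SE 0.19) and Gzmb (-2.62, SE 0.16). Beside the granzymes, Cd3g changed by -1.98 (SE 0.10), Cd3d by -0.97 (SE 0.07) and Cd8a by -0.67 (SE 0.06). Changes were smaller for Thy1 (-0.39), Cd2 (-0.24), Cd247 (-0.24), Cd3e (-0.23), Cd8b1 (-0.20) and Cd4 (-0.12), of which Cd4 did not pass. The median difference of the T lymphocyte markers was -0.39. The median difference was -0.84 for the smooth muscle markers, -0.04 for the fibroblast, -0.19 for the endothelial and -0.21 for the myeloid markers. Their part in the falls of Abca8a, Abca7 and Abcc5 was not tested.

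Subfamily C holds the multidrug resistance-associated proteins, which export organic anions and conjugates. Abcc5, an exporter of cyclic nucleotides, was at 7.87, 7.97, 7.88 and 7.66 in the knockout, against 8.63, 8.07, 8.58 and 8.49 in wild type. Wild type replicate 2 lay close to the knockout samples, though the groups did not overlap. The difference was -0.60 (SE 0.11, adjusted p = 0.00212) and was -0.72 without wild type replicate 2 (adjusted p = 0.000141). It was the difference of 1 of 7 Abcc5 probe sets. The other 6 had lower signals and differences from -0.08 to 0.20, none of which passed over all probe sets, and with the mean of the 7 the difference was -0.07 (adjusted p = 0.195). Abcc1, which exports glutathione conjugates and leukotriene C, was at 6.39, 6.40, 6.46 and 6.62 in the knockout, against 6.22, 6.05, 6.24 and 6.24 in wild type. No knockout sample fell into the wild type range, and the gene rose by 0.28 (SE 0.07, adjusted p = 0.00745). With those 3 dim arrays left out this became 0.16 (adjusted p = 0.0750), a value moved by over 1.5 times. A second Abcc1 probe set differed by 0.12 and did not pass. Abcc4 was at 4.70, 4.39, 4.73 and 4.60 in the knockout and at 4.70, 4.64, 4.87 and 4.91 in wild type, with overlapping groups and an adjusted p of 0.165. Abcc10 and Abcc12 lay above the median probe set and did not pass (-0.12 and -0.02), and Abcc6 and Abcc8, the sulfonylurea receptor, lay below it in both genotypes. Kcnj8, a pore subunit that pairs with sulfonylurea receptors, fell by 0.42 (SE 0.08, adjusted p = 0.00273), and the other pore gene, Kcnj11, differed by -0.02.

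The exporters that the rule left out moved in both directions. Abcc3, on the basolateral membrane, was at 8.18, 8.26, 8.37 and 8.37 in the knockout, against 7.92, 7.77, 7.62 and 7.59 in wild type. Abcg2, on the apical membrane, was at 10.64, 10.47, 10.39 and 10.61 in the knockout, against 11.20, 11.16, 11.14 and 11.09 in wild type. Both pairs of groups were separate, with differences of 0.57 (SE 0.08, limma adjusted p = 0.000257) for Abcc3 and -0.62 (SE 0.06, adjusted p = 3.04e-05) for Abcg2. Abcc2, also apical, was at 8.19, 8.46, 8.96 and 7.81 in the knockout, against 7.75, 8.55, 8.50 and 8.12 in wild type, and its interval of -0.39 to 0.64 leaves changes of either sign possible. Among ABC genes named outside the pattern, Cftr, the chloride channel, differed by -0.06 (SE 0.15, adjusted p = 0.825), and Tap1 and Tap2 were not analysed here.

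**Figure D2:**
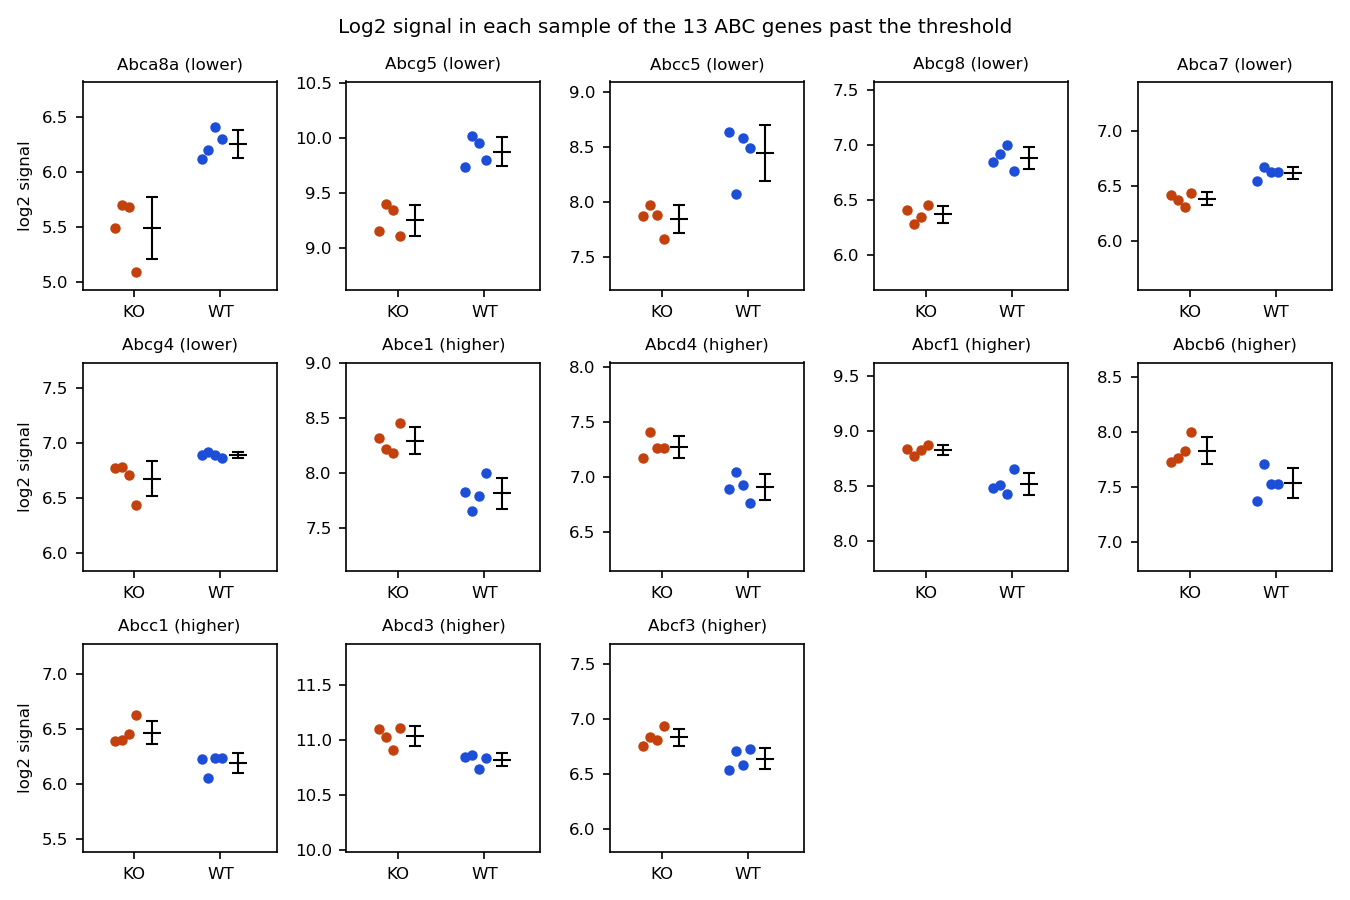
Log2 signal in each knockout (KO, left) and wild type (WT, right) sample of the 13 ABC genes past the threshold, with the mean and SD of 4 samples beside the points; every panel spans the same height. The genotypes are separate in all 13 panels, and wild type replicate 2 of Abcc5, at 8.07, is the wild type point nearest to the knockout range of that gene.

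Subfamily B combines drug, lipid and peptide pumps of the plasma membrane and lysosome with transporters of mitochondria. Abcb1a, the intestinal P-glycoprotein gene of the mouse, was at 11.30, 11.36, 11.46 and 11.19 in the knockout, against 10.76, 10.99, 11.16 and 11.38 in wild type. Wild type replicate 4 lay within the knockout range and the other wild type samples below it. The difference of 0.25 (SE 0.11) did not pass (adjusted p = 0.124). It depended on single wild type arrays: with replicate 1 left out it was 0.15 (limma adjusted p = 0.293), and with replicate 4 left out it was 0.36, which passed (adjusted p = 0.0212). Its second probe set differed by 0.30 (SE 0.10), also without passing. Abcb1b, the other mouse P-glycoprotein gene, was at 4.66, 4.67, 4.77 and 4.68 in the knockout and at 4.67, 4.57, 4.71 and 4.62 in wild type, near the median probe set. A second Abcb1b probe set, below the median probe set, differed by -0.08, the opposite direction, and did not pass. The change of Abcb1a minus that of Abcb1b was 0.20 (exact 2-sided permutation test p = 0.257, adjusted p = 0.371 over the 2 pairs). Abcb4, which moves phosphatidylcholine into bile in the liver, was at 5.17, 5.18, 5.21 and 4.93 in the knockout and at 5.19, 5.17, 5.22 and 5.07 in wild type. Abcb11 was at 4.78, 4.63, 4.75 and 4.75 in the knockout and at 4.76, 4.70, 4.69 and 4.71 in wild type, close to the median probe set. For both genes the groups interleaved, with intervals of -0.19 to 0.11 for Abcb4 and -0.09 to 0.12 for Abcb11. The lysosomal peptide transporter Abcb9 differed by 0.13 (SE 0.05, adjusted p = 0.107).

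Of the 3 mitochondrial members, Abcb6, a porphyrin transporter also found in other membranes, was at 7.82 ± 0.12 in the knockout and 7.53 ± 0.14 in wild type. It rose by 0.29 (SE 0.08, adjusted p = 0.0156), a call lost with the hybridization controls as a covariate (adjusted p = 0.0893). Abcb10, an inner membrane protein of haem-making cells, was at 8.07 ± 0.09 in the knockout and 8.18 ± 0.04 in wild type, a difference of -0.11 (adjusted p = 0.163). It was called lower with cyclic loess normalisation (-0.18, adjusted p = 0.0338). Abcb8, of the inner mitochondrial membrane, was at 6.70 ± 0.09 in the knockout and 6.58 ± 0.08 in wild type by its brightest probe set (adjusted p = 0.156). Its other probe set was at 6.05 ± 0.26 in the knockout and 5.42 ± 0.06 in wild type, higher by 0.63 (SE 0.11, adjusted p = 0.00141 over all probe sets), so that the probe sets of this gene disagree on whether it changed. Of 19 measured genes of mitochondrial iron-sulphur and haem synthesis, 13 were higher, 0 were lower and 6 did not pass. Their median difference was 0.28 beside 0.01 for all genes. The share past the threshold was 68.4%, against 43.2% of all genes above the median probe set in at least 1 genotype. Glrx5, an iron-sulphur carrier, rose by 0.61 (SE 0.05), the mitochondrial chaperone Hspa9 by 0.60 (SE 0.05), the porphyrin-linked Tmem14c by 0.50 (SE 0.05) and the haem synthesis enzyme Alas1 by 0.70 (SE 0.08).

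Subfamily D brings acyl-CoA esters into peroxisomes, apart from Abcd4, which takes part in the export of cobalamin from lysosomes. Abcd4 was at 7.17, 7.41, 7.26 and 7.26 in the knockout, against 6.89, 7.04, 6.93 and 6.76 in wild type. No values overlapped, and the gene rose by 0.37 (SE 0.07, adjusted p = 0.00208). Its other probe set, at 4.73 ± 0.07 in the knockout and 4.72 ± 0.05 in wild type, showed no difference past the threshold. Abcd3, the abundant peroxisomal membrane protein that imports branched-chain acyl-CoA and bile acid precursors, was at 11.10, 11.02, 10.91 and 11.11 in the knockout, against 10.85, 10.87, 10.74 and 10.84 in wild type. The groups came close without overlapping, and the rise was 0.22 (SE 0.06, adjusted p = 0.0135). It was 0.12 with cyclic loess normalisation (adjusted p = 0.111), less by over 1.5 times. Abcd2, for very long-chain fatty acids, lay below the median probe set. Of 18 measured genes of peroxisome assembly and beta-oxidation, 6 were higher, 3 were lower and 9 did not pass. The share past the threshold, 50%, was not far from the 43.2% of all genes above the median probe set in at least 1 genotype. All 6 that rose were peroxins, among them Pex11g (0.45, SE 0.05) and Pex7 (0.39, SE 0.05), and the 3 that fell were Scp2 (-0.35, SE 0.05), Slc27a2 (-0.29, SE 0.07) and Acaa1a (-0.25, SE 0.07), proteins of fatty acid activation and breakdown. Slc27a2 and Acaa1a were named after their values were seen.

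Of the 4 members of subfamilies E and F, 3 were higher and 0 were lower. Higher were thus 75%, against 25.2% of all genes above the median probe set in at least 1 genotype. No test was run over a subfamily. Abce1, which splits ribosomes into subunits after termination, was at 8.32, 8.22, 8.18 and 8.46 in the knockout, against 7.83, 7.65, 7.79 and 8.0 in wild type. The groups were separate, and Abce1 had the largest rise of the family, 0.48 (SE 0.08, adjusted p = 0.00105), or 1.39-fold. A second probe set rose by 0.36 (adjusted p = 0.0277 over all probe sets), and the third lay below the median probe set. Abcf1, a partner of initiation factor eIF2, was at 8.83, 8.77, 8.83 and 8.87 in the knockout, against 8.48, 8.51, 8.42 and 8.65 in wild type. Its knockout samples were tightly grouped above all wild type samples, with a difference of 0.31 (SE 0.06, adjusted p = 0.00157). The other 5 Abcf1 probe sets differed by 0.01 to 0.22 and none passed. Abcf3 was at 6.83 ± 0.08 in the knockout and 6.64 ± 0.09 in wild type, a rise of 0.19 (SE 0.06, adjusted p = 0.0302). The call of Abcf3 was lost in 7 of 19 alternative fits, 5 of which left out 1 array (adjusted p up to 0.0857), while a second probe set rose by 0.29 (adjusted p = 0.0209 over all probe sets). Abcf2 differed by 0.14 (SE 0.07, adjusted p = 0.212). Abcf3 and Abcc5 lie near each other on chromosome 16, with 3 protein-coding genes between them, and moved in opposite directions.

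Genes that work with these proteins on the ribosome, and genes of dividing cells, were set beside them. Of 11 measured genes of ribosome recycling and amino acid sensing, 5 were higher, 0 were lower and 6 did not pass (median difference 0.19). The share past the threshold was 45.5%, near the 43.2% of all genes above the median probe set in at least 1 genotype. All these calls were rises, and 25.2% of all genes at that level were higher. The list was not tested against all genes. The initiation exchange factor subunit Eif2b1 rose by 0.70 (SE 0.06), the termination factor Gspt1 by 0.53 (SE 0.06), the eIF2 subunit Eif2s3x by 0.33 (SE 0.05) and the termination factor Etf1 by 0.26 (SE 0.07). Pelo, the direct partner of ABCE1 on stalled ribosomes, differed by 0.03 (SE 0.08, adjusted p = 0.798). Of 9 crypt stem and cycling markers, 5 were higher, 2 were lower and 2 did not pass. Against 25.2% and 18% of all genes at that level, 55.6% of the list was higher and 22.2% lower. Those that rose were the cycling genes Bub1 by 0.84 (SE 0.07), Birc5 by 0.79 (SE 0.06), Ccnb2 by 0.68 (SE 0.05), Top2a by 0.27 (SE 0.07) and Mki67 by 0.22 (SE 0.08). The stem cell genes Lgr5 and Olfm4 fell by 0.31 (SE 0.10) and 0.18 (SE 0.06). The summed signal of the 9 markers was 5639 to 6320 in the knockout and 5487 to 5821 in wild type. Olfm4, at 11.52 ± 0.10 in the knockout and 11.70 ± 0.08 in wild type, was the brightest of them and weighs most in that sum, while the median difference of the list was 0.22. The part of dividing cells in the rise of Abce1, Abcf1 and Abcf3 was not tested.

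**Figure D3:**
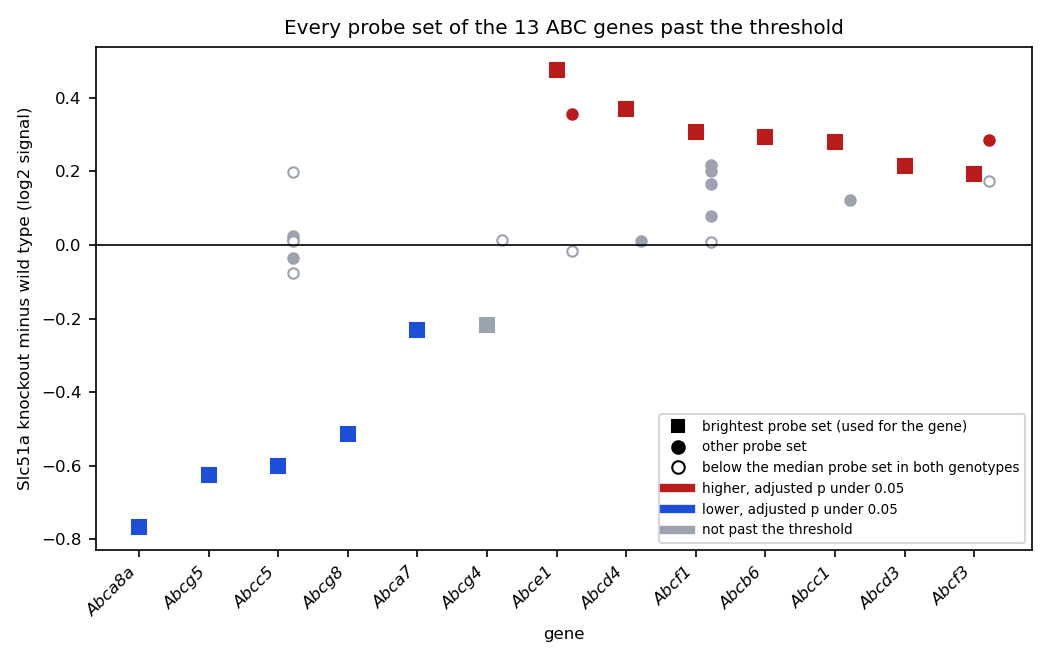
Difference between genotypes of every probe set of the 13 ABC genes past the threshold, with the brightest, used for the gene, as a square and the others as circles. Abcc5 shows 1 lower probe set and 6 from -0.08 to 0.20 that did not pass, whereas a second probe set of Abce1 and of Abcf3 also passed, and the Abcg4 square is grey because its adjusted p over all probe sets was 0.0529.

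Across the family, 22 of the 39 members had more than 1 probe set. Among members past the threshold, 7 had others, 18 in all, of which 2 passed in the same direction, 0 in the opposite one and 16 did not pass. Factors that regulate drug pumps were also measured. Of 7, 3 were higher and 0 were lower. Those higher were Ppara (0.53, SE 0.12), Nfe2l2 (0.47, SE 0.07), which encodes NRF2, and Nr1i3, the last below the median probe set in both genotypes. All 7 together gave 42.9% higher, against 17.1% of all genes, a contrast that was not tested. Of the 6 factors above the median probe set in at least 1 genotype 2 passed, where 43.2% of all genes at that level did. Nr1i2, the pregnane X receptor, was at 7.38 ± 0.09 in the knockout and 7.42 ± 0.14 in wild type.

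Library facts bear on these values as follows. Array medians were 4.56 to 4.60, and correlations across probe sets were 0.996 to 0.998 within and 0.988 to 0.992 between genotypes. The hybridization controls were lowest in knockout replicates 3 and 4 and wild type replicate 2, at 8.74 to 8.86 against 8.95 to 9.15 in the other arrays. Without these 3 arrays 5 members were higher and 5 lower, of which 5 and 4 passed the same way with all 8 arrays, and over all genes 2079 were higher and 1414 lower. Abca5 was the member gained (-0.28, adjusted p = 0.0172).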

How the data were processed

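Each of 8 arrays measured 1 ileum sample, labelled from 250 ng of total RNA by 3' in vitro transcription with the Affymetrix GeneAtlas kit, as the labels' protocols state. The authors deposited log2 probe set signals made with RMA (named in the submitters' processing notes), whose version is not given in the sources used here. This method compresses low signals, so a change near the floor is understated. The files hold no detection calls and no array batch, and precision rests on 4 arrays of each genotype.

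Of 45037 probe sets other than controls, 28898 had 1 gene symbol in the platform annotation, and 28689 of these were updated by Entrez identifier to RefSeq of GRCm38.p6. The brightest per gene over all 8 arrays gave 17097 genes, with no filter on dim ones. The test between genotypes was limma's (version 3.58.1, R 4.3.3; lmFit, eBayes, 2-sided, Benjamini-Hochberg over all genes, threshold 0.05). For probe sets, p was adjusted over all 45037. The change of Abcg5 against Abcg8 and of Abcb1a against Abcb1b was tested exactly over the arrays; a planned pair with Abca1 was not run. On simulated data for this comparison of 17097 genes, 40% of genes changed by 0.25 were recovered, 88% at 0.5 and 100% at 1 and 2, with 2 false calls. These figures belong to the simulation. Recovery and the number of false calls can differ in the real data, where 5134 genes passed. The samples are numbered biological replicates.

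The members and lists were chosen with earlier results of these data known. Named were members past the threshold, 12 transporters whatever their values, the left-out exporters, and up to 4 members of each context list by adjusted p; others were named after their values were seen. Alternatives were a filter on dim genes, other normalisations, other uses of probe sets, other priors, weighted arrays, a block for the replicate number, each array left out, other thresholds and the hybridization controls. Figures used matplotlib 3.10.9.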

Additional observations from a re-analysis of the deposited data

Results flagged for a closer look

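Within a genotype, 4 of 80 groups of 4 values held 1 sample far from the other 3, and chance gives about 1 in 20. Abcb1b in the knockout was at 4.77 in replicate 3 against 4.66 to 4.68 in the others. For Abcb4 in the knockout, replicate 4 was at 4.93 against 5.17 to 5.21. Abcc1 in wild type was at 6.05 in replicate 2, one of the 3 arrays with low hybridization controls, against 6.22 to 6.24. Abcf2 in the knockout was at 6.30 in replicate 4 against 5.98 to 6.00.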

How the results depend on the processing

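With 19 alternatives at the same threshold, 6 of the 13 members past it passed in all of them, Abca8a, Abcd4, Abce1, Abcf1, Abcg5 and Abcg8, and 0 changed direction. The other 7 were lost in at least 1, Abcg4 in 10 and Abcf3 in 7, and 5 others passed in some. Higher members numbered 4 at an adjusted p under 0.01 and 0 at a fold of at least 1.5, where 3 were lower, against 7 and 6. On leaving out 1 array, 6 to 8 were higher and 5 to 7 lower, and the median difference was -0.02 to 0.02. The change of Abcb1a minus Abcb1b was then 0.089 to 0.31 (exact permutation p = 0.0286 without wild type replicate 4) and that of Abcg5 minus Abcg8 -0.19 to -0.04. Same-numbered samples correlated at 0.22, -0.05, 0.11 and 0.16 in their deviations. Replicates 1, 3 and 4 matched the wild type sample of their own number best, and replicate 2 matched wild type replicate 3. These correlations were low and do not settle the question, and the numbers were not taken as pairs. With the replicate block, 7 members were higher and 6 lower, the same genes. The number of arrays, and signals near the floor for 10 members, limit what can be detected.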
